A study of Mus musculus with 7 samples.

Results

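The 19 genes described here are named protein-coding genes whose RNA was plentiful in mini-oocytes at day 7 of induction and scarce or not seen at day 21. A gene was selected if it had at least 20 TPM (reads divided by exon length, with every library then brought to an equal sum) in both day 7 libraries and under 1 TPM in all 5 day 21 libraries. Of 55364 genes listed, 36 met these limits, and 17 of those carry symbols that were left out because they are clone names, microRNAs, small nucleolar RNAs or members of families set aside (2 Rhox genes, 2 simple keratin genes and the imprinted gene Phlda2). The remaining 19 are 0.405% of the 4693 named genes with at least 20 TPM in both day 7 libraries. Since the members were selected on day 7 and day 21 TPM, their fall between those days is a property of the choice and is given as a description, with no test.

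Mini-oocytes are small oocyte-like cells that form in flat culture, without ovarian somatic cells, from mouse embryonic stem cells (mESCs) that carry inducible oocyte transcription factors. All 7 libraries come from derivatives of BVSC H18, a female mESC line of hybrid 129/C57BL6 background kept in 2i and LIF before induction. In the 4F cells Nobox, Figla, Tbpl2 and Lhx8 were expressed, and the 8F cells also carried Stat3, Dynll1, Sub1 and Sohlh1. Each factor carries a destabilization domain and persists only while Shield-1 is present. Every group was cultured with SCF and the ROCK inhibitor Y-27632. The day 7 cells were taken while Shield-1 was supplied, and the day 21 cells after fresh medium had lacked it from day 12. The groups were 4F at day 7 (n = 2, pools of 1000 cells), 4F at day 21 (n = 3, pools of 10 cells) and 8F at day 21 (n = 2, pools of 10 cells). Day of culture, pool size and the supply of Shield-1 therefore changed together, and their parts in any difference between days cannot be told apart. The sources do not say whether replicates are separate cultures or how many clones each line holds, so the p-values may measure technical spread only.

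The 19 genes do not form a known pathway. As background, trophoblast and other extra-embryonic cells use Nrk and Esx1, interferon signalling drives Isg15 and Irf7, and metal ions acting through the factor MTF1 drive the metallothionein Mt1. AP-1, a factor made of Fos and Jun proteins, acts in adherent and stressed cells. S100a10, Ahnak, Cald1 and Plaur serve the cell membrane and the actin cortex of adherent cells, while Taf7l is best known from germ cells.

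Estimated from the steps in low values, between 19015912 and 36062843 reads per library fell on genes, with the mates of a pair counted separately, and 3 reads on 1 kb of exon were worth 0.257 to 0.382 TPM. The label of oocyte-like cells was checked on 12 oocyte markers, whose summed level was 11845 and 14499 TPM at day 7 and 34815 to 50695 TPM at day 21, with none at 0 at either day. Nobox and Figla are among the 12 and were also induced factors, so their RNA includes that of the transgenes. Markers of trophoblast moved the other way, from sums of 2004 and 2869 TPM at day 7 to 88.9 to 191 TPM at day 21, with 5 of the 20, Cdx2, Elf5, Gcm1, Tpbpa and Prl3d1, listed at 0 in both day 7 libraries. Fibroblast and matrix markers had sums of 577 and 354 TPM at day 7 and of 7.92 to 22.6 TPM at day 21. Most of the day 7 sums came from 2 basement membrane collagens, Col4a1 at 301 and 171 TPM and Col4a2 at 138 and 67.0 TPM. Of the 13 markers, 3 were listed at 0 in both day 7 libraries. The part of any other cell types in the levels of the 19 genes was not tested. In pooled cells, fewer cells of a type and less RNA per cell cannot be told apart.

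RefSeq promoter windows on GRCm38.p6, from 250 bases before to 50 bases after a start site, matched 17 of the 19 genes, all but Folr1 and S100a10. The windows of 4 genes are printed because they hold motifs of interferon factors, of MTF1 or of AP-1, and their matches are in capitals. The first is Isg15, chr4:156200769-156201068 on the minus strand, with the interferon-response element GAAANNGAAA. Next is Mt1, chr8:94178839-94179138 on the plus strand, with the metal-response core TGCACNC or TGCGCNC. Plaur, chr7:24462233-24462532, and Sbsn, chr7:30751221-30751520, both on the plus strand, hold the AP-1 motif TGANTCA.
Isg15: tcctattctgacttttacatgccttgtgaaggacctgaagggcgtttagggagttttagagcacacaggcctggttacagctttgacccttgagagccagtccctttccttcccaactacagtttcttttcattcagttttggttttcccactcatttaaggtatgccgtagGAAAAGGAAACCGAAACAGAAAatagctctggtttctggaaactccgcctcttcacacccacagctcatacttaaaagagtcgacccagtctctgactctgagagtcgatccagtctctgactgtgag
Mt1: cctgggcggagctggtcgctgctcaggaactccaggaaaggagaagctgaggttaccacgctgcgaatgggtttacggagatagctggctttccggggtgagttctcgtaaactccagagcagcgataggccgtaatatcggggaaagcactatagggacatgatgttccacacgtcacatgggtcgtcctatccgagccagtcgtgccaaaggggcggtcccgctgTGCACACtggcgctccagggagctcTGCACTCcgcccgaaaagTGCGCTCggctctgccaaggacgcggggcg
Plaur: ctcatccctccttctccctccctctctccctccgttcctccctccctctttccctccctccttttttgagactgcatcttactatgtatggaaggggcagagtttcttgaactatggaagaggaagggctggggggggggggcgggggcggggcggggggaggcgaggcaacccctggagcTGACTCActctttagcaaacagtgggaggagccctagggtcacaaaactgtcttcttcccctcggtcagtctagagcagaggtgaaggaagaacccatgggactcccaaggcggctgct
Sbsn: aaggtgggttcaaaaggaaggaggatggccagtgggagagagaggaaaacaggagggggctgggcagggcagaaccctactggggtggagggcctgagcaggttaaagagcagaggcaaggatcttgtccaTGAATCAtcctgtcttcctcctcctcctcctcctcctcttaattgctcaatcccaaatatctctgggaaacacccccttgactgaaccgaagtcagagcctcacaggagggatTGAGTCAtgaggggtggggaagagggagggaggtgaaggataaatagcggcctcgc

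The capitals of Isg15 are 3 overlapping matches that begin 78, 72 and 66 bases before the start site. Isg15 was the 1 member of 17 with the interferon-response element, which 3.44% of the 32851 windows hold. In Mt1 the metal-response core begins 23 bases before the start and at positions 3 and 21 after it, and the core occurred in 6 of the 17 members and in 25.7% of all windows. The AP-1 motif was found in 5 members, Cald1, Esx1, Plaur, Sbsn and Taf7l, against 7.81% of all windows, and Sbsn holds 2 matches.

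In all, 14 motifs were searched on both strands, and those shown were picked after the matches were seen. The other 11, with the members that matched out of 17 and the share of all windows, were as follows. CACGTG (the E-box) was in 3 and in 7.15%, and TATAAA (the TATA box) in 3 and in 13.6%. GATAA (GATA factors) was in 6 and in 25.4%, GGAATG (TEAD) in 4 and in 14.7%, GGGCGG (SP1) in 7 and in 35.7%, CCAAT (NF-Y) in 4 and in 37.4%, and GCCNNNGGC (AP-2) in 1 and in 16.6%. No member window held TTCNNNGAA (STAT, 8.30% of windows), TTTCGCGC or TTTCCCGC (E2F, 1.37%), CCGGAAG (ETS, 8.86%) or the CArG box (1.63%). None of the 14 motifs was found in more than 7 of the 17, and the windows ranged from 2 CG dinucleotides in Nxf7 to 31 in Nrk, with a median of 10 against 7 over all windows. A match describes letters in the window and not a bound site.

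The genes best known from placenta were Nrk and Esx1, both on chromosome X. Nrk (chrX:138914430-139010532), a kinase of the germinal centre family that restrains growth of the placenta, was the most abundant member at 81.8 and 126 TPM at day 7. At day 21 it was listed at 0 in all 3 4F libraries, and the 8F libraries held 0.0745 and 0.0192 TPM. About 5911 and 12098 reads fell on Nrk at day 7 against 8 and 2 in the 8F libraries. With 3 reads in a library taken as the limit, the 4F level at day 21 was at least 2672-fold lower than the day 7 mean. As mates were counted separately and 89.6% of whole low values were even, 3 reads mostly stand for fewer than 3 fragments. The folds given on this limit are therefore nominal and not strict lower bounds. Esx1 (chrX:137115397-137122083), a homeobox gene needed for the fetal side of the placenta, had 51.4 and 33.1 TPM at day 7. At day 21 the 4F libraries had 0, 0.696 and 0 TPM and the 8F libraries 0.519 and 0.0891 TPM. Esx1 was thus still seen in 4F replicate 2, with about 12 reads, and in both 8F libraries.

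Esx1 belongs to the list of 20 trophoblast markers. Of the 13 other tested genes on it, 9 were lower and 1 was higher in 4F at day 21 than at day 7 (limma, Benjamini-Hochberg FDR 0.05), against 15.3% of all 21780 tested genes lower and 25.3% higher. Their median log2 fold change was -3.90, against 0.17 over all tested genes. The 2 most abundant genes of the list did not reach 0, while Krt19, at 37.0 and 127 TPM at day 7, was listed at 0 in all 5 day 21 libraries. Krt8, a simple epithelial keratin, had 660 and 863 TPM at day 7 and 24.4 to 128 TPM at day 21, and Peg10, an imprinted gene required for the placenta, had 663 and 932 TPM and then 9.82 to 28.4 TPM.

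Both genes of the metal and folate group were among the 4 most abundant members. Mt1 (chr8:94179082-94180327), a small cysteine-rich protein that binds zinc and copper, had 45.8 and 61.6 TPM at day 7. It was listed at 0 in all 3 4F libraries at day 21, and the 8F libraries had 0.413 and 0 TPM, the first from about 6 reads. On the nominal limit of 3 reads, the 4F level was at least 187-fold below the day 7 mean. Folr1 (chr7:101858331-101870788), the membrane receptor that takes up folate, had 57.8 and 41.7 TPM at day 7 and was listed at 0 in the 3 4F libraries at day 21. The 8F libraries, at 0.299 and 0.539 TPM, both lay above it. Folr1, S100a10, Irf7 and Nrk were the 4 members with reads in both 8F libraries and in no 4F library at day 21.

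The metallothionein genes parted from each other. Mt2, which lies beside Mt1 on chromosome 8, had 12.1 and 36.5 TPM at day 7, 0 in the 3 4F libraries and 1.02 and 0.451 TPM in the 8F libraries at day 21. Its log2 fold change in 4F was -4.47 ± 0.52 (SE, limma adjusted p = 0.00094). Mt4, the metallothionein of stratified squamous epithelium, had no reads at day 7 and had 89.0, 79.2 and 33.0 TPM in 4F and 90.5 and 61.4 TPM in 8F at day 21. Mtf1, the zinc-sensing activator of metallothionein genes, rose by 1.55 ± 0.17 (log2, SE, limma adjusted p = 0.00078), from 21.9 and 17.9 TPM to 62.9, 52.3 and 65.9 TPM in 4F. Over all tested genes, 15.3% were lower and 25.3% higher in 4F at day 21. Of the 10 other tested genes on the list for metal and oxidative stress, 4 were lower and 3 higher, and their median log2 fold change was -0.48. Its most abundant other genes stayed high, with Prdx1 at 376 and 431 TPM at day 7 and 224 to 282 TPM at day 21, and Gsta4 at 320 and 300 TPM and then 178 to 397 TPM.

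S100a10, S100a1 and Ahnak had the closest values in the 2 day 7 libraries. S100a10 (chr3:93555080-93564643), a light chain that joins annexin A2 in a complex under the plasma membrane, had 62.4 and 59.9 TPM at day 7. It was listed at 0 in the 3 4F libraries at day 21 and had 0.142 and 0.292 TPM in the 8F libraries, from about 2 and 4 reads. S100a1 (chr3:90511034-90514392), a calcium sensor best known from heart muscle, had 27.5 and 26.5 TPM at day 7 and was listed at 0 in all 5 day 21 libraries. It is the member with the shortest exons (694 bases), so 3 reads in a 4F library would be worth up to 0.515 TPM. On that nominal limit the fall of S100a1 in 4F was at least 52-fold. Ahnak (chr19:8989284-9076914), a giant scaffold protein that binds the S100a10 and annexin A2 complex, has the longest exons (19938 bases) and so the finest limit. Ahnak had 42.6 and 44.8 TPM at day 7, 0.161, 0.0115 and 0 TPM in 4F at day 21 and 0.129 and 0.115 TPM in 8F. About 30, 2 and 0 reads stood behind the 4F values, so Ahnak RNA was still seen in 2 of the 3 libraries.

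Anxa2, the partner of S100a10, fell less and stayed above 0. It had 46.3 and 26.9 TPM at day 7, 3.43, 2.22 and 2.11 TPM in 4F at day 21 and 11.4 and 10.3 TPM in 8F. The log2 fold change was -3.36 ± 0.34 (SE, limma adjusted p = 0.00057) between days in 4F, and 1.74 for 8F minus 4F at day 21 (limma adjusted p = 0.031), with both 8F libraries above all 3 4F libraries. This second call was lost with a pseudocount of 5 TPM (1.06), with no filter (1.74) and with the replicate block (1.64). It was also lost without 4F replicate 2 or 3 or either 8F replicate, with differences of 1.64 to 1.80 and limma adjusted p of 0.069 to 0.26. S100a11, a neighbour of S100a10 on chromosome 3, went from 197 and 248.8 TPM to between 17.6 and 30.1 TPM. In 4F at day 21, 15.3% of all tested genes were lower and 25.3% higher. Of the 14 other tested genes on the list of S100 and annexin genes, 10 were lower and 1 higher in 4F at day 21, and their median log2 fold change was -2.08. By the mean of all 7 libraries, which gives day 21 more weight than day 7, the highest of them were Anxa6, at 215 and 263 TPM at day 7 and 67.6 to 92.5 TPM at day 21, and Anxa7, at 94.2 and 96.1 TPM and then 137 to 198 TPM.

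The antiviral group held Isg15, Irf7 and Mov10. Isg15 (chr4:156199424-156200818), a ubiquitin-like protein that is attached to other proteins after interferon, had 43.1 and 29.1 TPM at day 7 and was listed at 0 in all 5 day 21 libraries. With exons of 756 bases, the fall in 4F was at least 76-fold on the nominal limit of 3 reads. Irf7 (chr7:141262706-141266481), a master activator of type I interferon genes, had 22.3 and 27.6 TPM at day 7, 0 in the 3 4F libraries at day 21 and 0.0227 and 0.234 TPM in 8F. Its exons share 1.19% of their bases with Phrf1 on the other strand. Mov10 (chr3:104794836-104818563), an RNA helicase that restrains retroviruses and retrotransposons, had 32.4 and 41.1 TPM at day 7. In 4F at day 21 it had 0, 0.903 and 0 TPM, so about 44 reads in replicate 2 and none in the others, and in 8F it had 0.428 and 0.505 TPM.

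Relatives of these genes took different courses. Mov10l1, the germ cell helicase that acts on piRNA precursors, had 26.6 and 24.7 TPM at day 7. At day 21 it had 27.5, 27.0 and 13.4 TPM in 4F and 5.37 and 8.40 TPM in 8F. Its change between days in 4F did not pass the test (limma adjusted p = 0.63). Among the interferon regulatory factors, Irf1 rose from 16.2 and 13.9 TPM to 72.0, 71.0 and 84.8 TPM in 4F (limma adjusted p = 0.00021). Irf9, part of the complex that binds interferon-response elements, fell from 6.91 and 12.2 TPM to between 0.299 and 1.42 TPM over the day 21 libraries (limma adjusted p = 0.0043), and Irf2 fell from 2.86 and 2.64 TPM to 0 in 4F (limma adjusted p = 0.0019). Irf3 had 26.4 and 27.2 TPM at day 7 and 15.8 to 28.03 TPM at day 21 and did not pass the test on TPM, while on recovered reads it was lower in 4F (log2 fold change -0.78, limma voom adjusted p = 0.047). Usp18, the protease that removes Isg15 from proteins, had 3.61 and 14.2 TPM at day 7 and was listed at 0 in 4 of the 5 day 21 libraries (limma adjusted p = 0.0043).

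Isg15 and Irf7 belong to the list of interferon and MHC genes. Of its 11 other tested genes, 8 were lower and 1, Irf1, was higher in 4F at day 21, and their median log2 fold change was -2.04. The shares over all tested genes were 15.3% lower and 25.3% higher. The most abundant genes of the list, the MHC class I chain H2-K1 and its partner B2m, had 237 and 290 TPM and 178 and 208 TPM at day 7. At day 21 H2-K1 had 108 to 195 TPM and B2m 46.9 to 72.6 TPM.

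The germ line and RNA group was made up of Taf7l, Nxf7 and Mbnl2. Taf7l (chrX:134460118-134476490), a relative of the general transcription factor subunit TAF7 that is needed in spermatogenesis, had 29.1 and 42.3 TPM at day 7. It was listed at 0 in the 3 4F libraries and in 8F replicate 2 at day 21, and 8F replicate 1 had 0.0764 TPM from about 2 reads. Nxf7 (chrX:135579555-135598777), of the family of nuclear mRNA export factors, had 23.3 and 50.7 TPM at day 7 and was listed at 0 in 4 day 21 libraries, with 0.0653 TPM in 8F replicate 2. Nxf7 had the largest ratio between the day 7 libraries of all members, 2.18-fold. Mbnl2 (chr14:120275669-120431697), a regulator of alternative splicing, had 38.7 and 29.8 TPM at day 7, 0.0979, 0.595 and 0.437 TPM in 4F and 0.58 and 0.716 TPM in 8F at day 21. Mbnl2 was above 0 in all 5 day 21 libraries, with about 11 to 97 reads in each.

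Relatives of this group took different courses. Taf7 had 203 and 208 TPM at day 7 and 320, 309 and 282 TPM in 4F at day 21, a log2 fold change of 0.56 ± 0.12 (SE, limma adjusted p = 0.011) that did not pass the threshold after median-of-ratios rescaling, on recovered reads, without the eBayes trend or without day 7 replicate 1, and that turned to -0.03 under quantile normalization. Nxf1, the main mRNA export receptor, had 91.0 and 68.9 TPM and then 57.0 to 82.6 TPM, and passed the test only after rescaling or on recovered reads, with log2 fold changes of -0.59 to -0.84. Mbnl3, which is on chromosome X, fell from 18.4 and 33.2 TPM to between 0.355 and 2.08 TPM (limma adjusted p = 0.0015). Taf9b rose from 7.75 and 20.3 TPM to 80.9, 88.6 and 114 TPM in 4F (limma adjusted p = 0.0014). Of the 12 other tested genes on the list of germ line genes held down by DNA methylation, 0 were lower and 5 higher in 4F at day 21, and their median log2 fold change was 0.46. The shares over all tested genes were 15.3% lower and 25.3% higher. In 8F at day 21 against 4F at day 7, 3 genes of the list were lower, Taf7l by selection among them, and 2 were higher. In that comparison 13% of all tested genes were lower. The most abundant genes of this list were Tdrd1, at 301 and 290 TPM at day 7 and 489 to 581 TPM at day 21, and Mael, at 87.05 and 83.0 TPM and then 84.6 to 149 TPM.

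The remaining 6 members act at the cell surface, on filaments or in signalling. Plaur (chr7:24462484-24475968), the receptor of urokinase plasminogen activator, had 20.8 and 32.6 TPM at day 7 and was listed at 0 at day 21 except for 0.197 TPM in 8F replicate 1. Its ligand Plau, the urokinase gene, had 0 and 0.485 TPM at day 7 and at most 0.0748 TPM at day 21. Plat, the related tissue plasminogen activator, moved the other way from Plaur. It went from 41.1 and 50.2 TPM to 206, 187 and 173 TPM in 4F and 167 and 176 TPM in 8F (limma adjusted p = 0.00012 in 4F). Over all tested genes, 15.3% were lower and 25.3% higher in 4F at day 21. Of the 10 other tested genes on the list of proteases and inhibitors, 4 were lower and 3 higher, and their median log2 fold change was 0.28. Besides Plat its most abundant gene was Cst3, at 145 and 117 TPM at day 7 and 95.8 to 151 TPM at day 21. Sbsn (chr7:30751471-30756134), a secreted protein of the upper epidermis, had 27.8 and 49.9 TPM at day 7, 0.422, 0.0635 and 0 TPM in 4F and 0.32 and 0.301 TPM in 8F at day 21. It shares 7.70% of its exon bases with Tmem147os on the same strand, so a part of these reads may belong to that gene.

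Cald1 (chr6:34598500-34775473), which binds actin and tropomyosin, lay nearest to the limit at day 21. It had 22.6 and 25.6 TPM at day 7, 0.0532, 0.918 and 0.158 TPM in 4F and 0.684 and 0.294 TPM in 8F, with about 96 reads in 4F replicate 2. The tropomyosin genes fell and stayed above 0. Tpm1 went from 95.2 and 83.7 TPM to 15.6 to 34.2 TPM, Tpm2 from 69.5 and 64.2 TPM to 3.96 to 15.98 TPM, Tpm3 from 46.6 and 44.5 TPM to 12.9 to 23.0 TPM and Tpm4 from 51.4 and 69.5 TPM to 10.9 to 14.05 TPM. All 4 passed the test in 4F, with limma adjusted p between 0.00038 and 0.0059. Cnn2, a calponin of the same filaments, had 15.02 and 16.9 TPM at day 7 and at most 0.349 TPM at day 21 (limma adjusted p = 0.00029 in 4F), and it missed the selection at the day 7 limit. The other calponins did not follow Cnn2. Cnn1 had 12.6 and 17.7 TPM at day 7 and 9.77 to 16.9 TPM at day 21, and Cnn3 had 195 and 184 TPM and then 217 to 272 TPM.

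Bak1 (chr17:27019810-27029009), which forms pores in the mitochondrial membrane during apoptosis, lay nearest to the limit at day 7. It had 29.3 and 20.3 TPM at day 7, 0.443, 0.0956 and 0.478 TPM in 4F and 0.493 and 0.318 TPM in 8F at day 21. Bak1 shares 18.2% of its exon bases with Ggnbp1 on the other strand, and no strand option is stated for the counting, so its low values may include reads of that gene. Bax, which can take the place of Bak1, had 25.4 and 16.6 TPM at day 7 and 14.9 to 18.7 TPM at day 21 and did not pass the test (limma adjusted p = 0.34 in 4F). Bcl2l1, which holds both proteins in check, rose from 27.2 and 29.8 TPM to 84.0, 81.3 and 92.0 TPM in 4F (limma adjusted p = 0.00018). Mcl1, another inhibitor of Bak1, went from 90.6 and 70.9 TPM to 61.4, 51.5 and 52.6 TPM in 4F, lower at a limma adjusted p of 0.031 that was lost under 9 of 18 alternatives. Vdac2, a mitochondrial channel that binds Bak1, was lower in 4F at 36.5, 37.6 and 41.5 TPM after 58.7 and 58.5 TPM (limma adjusted p = 0.0092). Pbxip1 (chr3:89436706-89450952), a protein that binds PBX homeodomain factors, had 33.7 and 22.7 TPM at day 7, 0.137, 0.591 and 0.102 TPM in 4F and 0.367 and 0.303 TPM in 8F at day 21. B3gnt5 (chr16:19760208-19772753), the enzyme that starts lacto-series glycolipids, had 27.2 and 23.7 TPM at day 7 and at most 0.0886 TPM at day 21.

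**Figure D1:**
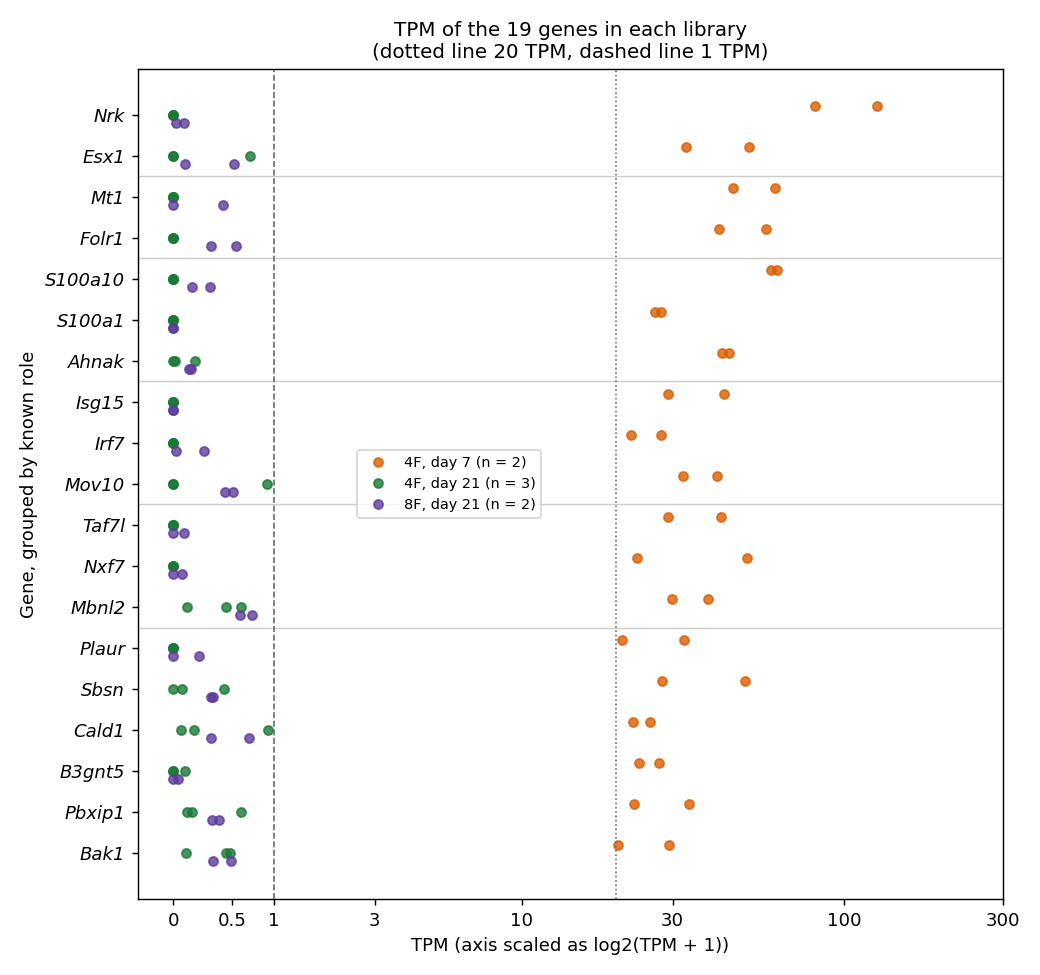
TPM of each of the 19 genes (rows, grouped by known role) in each library (points: orange, 4F at day 7, n = 2, green, 4F at day 21, n = 3, purple, 8F at day 21, n = 2), on an axis scaled as log2(TPM + 1). All day 7 points lie right of the dotted line at 20 TPM and all day 21 points left of the dashed line at 1 TPM, as the selection requires, and 10 genes have all 3 green points at 0.

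**Figure D2:**
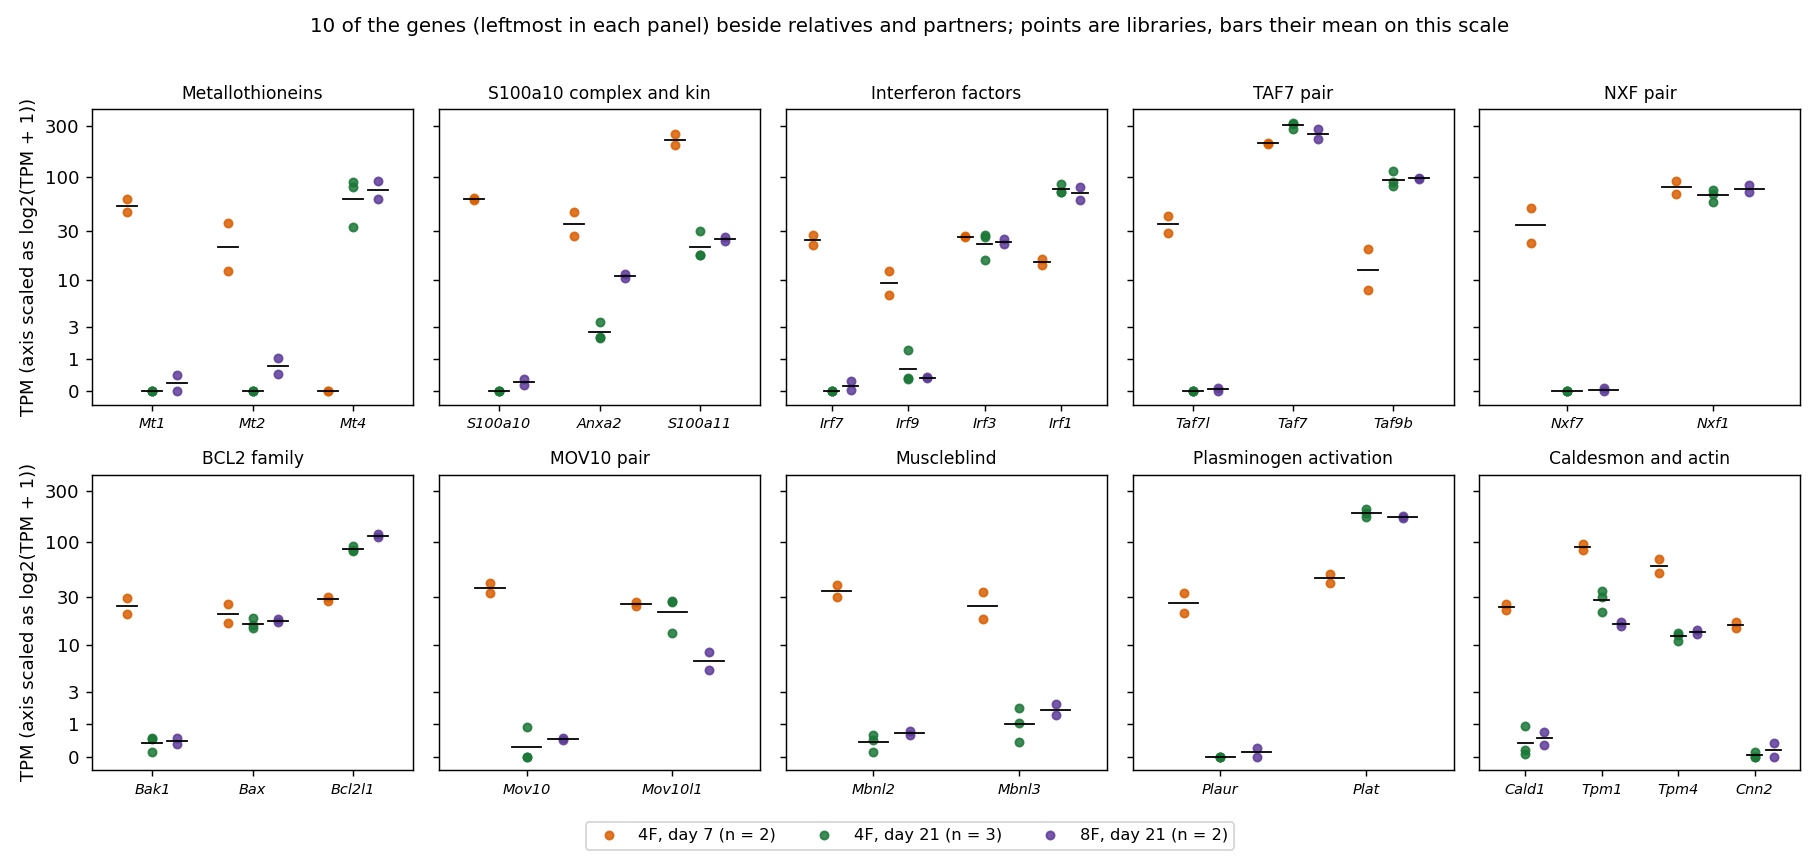
TPM of 10 of the genes (leftmost in each panel) and of related or interacting genes, as points for each library with a bar at the mean on the log2(TPM + 1) scale. Mt4, Irf1, Taf9b, Bcl2l1 and Plat lie higher at day 21 than at day 7, and the points of Bax, Irf3 and Nxf1 overlap between days, beside members that are under 1 TPM.

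In the fit of all genes, all 19 were among the genes lower in 4F at day 21, where 15.3% of the tested genes were called, and among those lower in 8F at day 21 than in 4F at day 7, where 13% were called. These counts follow from the selection, and in the second comparison the factor set changed together with the day. The log2 fold changes of the members, on the log2(TPM + 1) scale that understates the change of genes near 0, ran from -6.68 for Nrk to -4.24 for Cald1 in 4F (SE 0.33 to 0.45). The median was -5.06 in 4F and -4.87 in 8F. Rescaling by median of ratios lowered the median of all genes from 0.17 to -0.06 and raised the share of calls that were lower from 37.7% to 51.4%, and relative to the median of all genes the members' median was -5.23 before and -5.21 after it. On recovered reads 62.7% of calls were lower. The 64 related and partner genes, picked after the members' values were seen, gave 19 lower and 9 higher among 51 tested in 4F.

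At day 21 the members were recorded more often in 8F than in 4F libraries. Above 0 TPM were 6, 9 and 4 of the 19 in the 4F libraries and 16 and 13 in the 8F libraries, and 10 were listed at 0 in all 3 4F libraries against 2, Isg15 and S100a1, in both 8F libraries. Over all genes listed, 40.3%, 38.5% and 38.7% were above 0 in the 4F libraries and 48.0% and 48.3% in the 8F libraries, which were also deeper. The part of this in the members' counts was not tested. Summed over the 19 genes, the levels were 719.6 and 789 TPM at day 7, 1.31, 3.96 and 1.18 TPM in 4F and 4.78 and 3.79 TPM in 8F at day 21. The 4F replicate 2 was the highest 4F library for 6 of the 9 members seen in 4F, and its sum was near those of the 8F libraries.

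No member passed FDR 0.05 for 8F minus 4F at day 21, where 8.37% of all tested genes did, and none had an unadjusted p under 0.05 with limma. With limma voom on recovered reads, no member passed FDR 0.05 and 1 had an unadjusted p under 0.05. The selection kept both groups under 1 TPM and so bounded this difference, which ran from -0.02 to 0.50 ± 0.37 (log2, SE) for Folr1. The mean was higher in 8F for 16 of the 19, and both 8F libraries lay above all 3 4F libraries for 4. The values of the 8F libraries are also written with more decimals in the deposited table than those of the 4F libraries, and a difference in how the columns were made cannot be told apart from the factor set.

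The members as a group had no clear shift between the 2 day 7 libraries, but they were more spread than the named genes as a whole. Replicate 1 was higher for 9 and replicate 2 for 10 of the 19. The median of log2 replicate 1 over replicate 2, with 1 TPM added, was -0.07 and ranged from -1.09 for Nxf7 to 0.62 for Esx1. Over the 4693 named genes at 20 TPM or more, the median was 0.000579 and 90 percent of genes lay between -0.60 and 0.58, a range that held 14 of the 19 members. The SD of this log2 ratio was 0.52 over the members and 0.36 over the named genes. The members were also less abundant than most of those genes, with a median day 7 mean of 36.1 TPM against 45.7 TPM, and their exons were shorter, with a median of 2710 against 4478 bases.

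**Figure D3:**
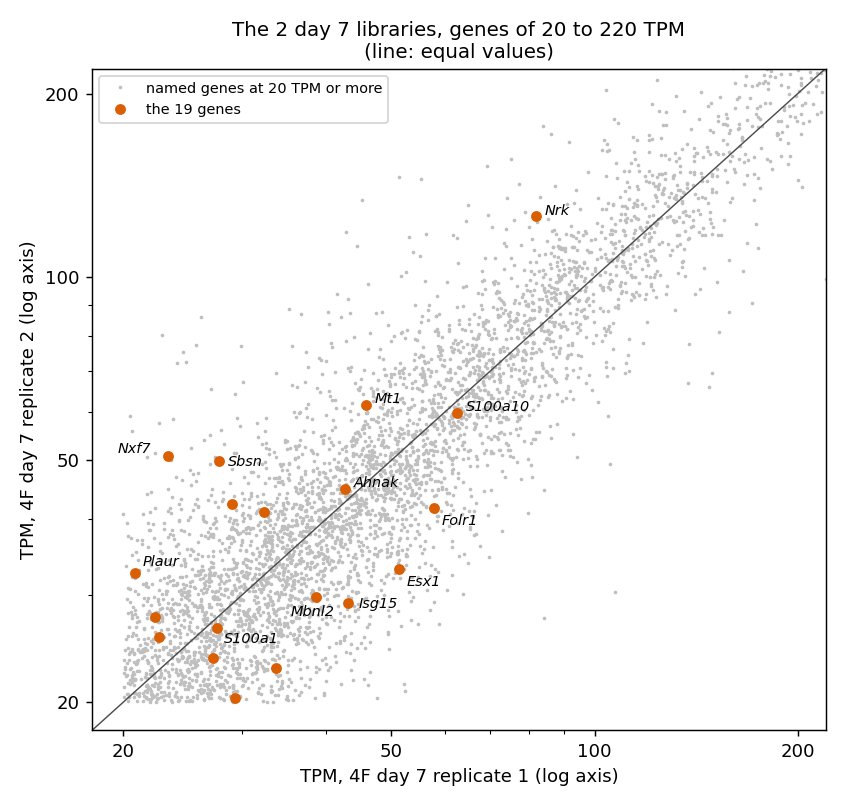
TPM in replicate 1 against replicate 2 of 4F at day 7, both on log axes, for named genes at 20 TPM or more (grey) and the 19 members (orange), shown up to 220 TPM. The members lie on both sides of the line of equal values, with Nxf7 and Sbsn farthest above it and Esx1 and Isg15 below it.

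The limits of the selection cut through a continuous range of values. Just inside the day 7 limit were Bak1, Plaur and Irf7, with lowest values of 20.3, 20.8 and 22.3 TPM. Just outside it were Pea15a, Serpinb9e and Eppk1, with lowest values of 19.4, 19.1 and 18.5 TPM and at most 0.644, 0.0892 and 0.883 TPM at day 21. Just inside the day 21 limit were Cald1, Mov10 and Mbnl2, with highest values of 0.918, 0.903 and 0.716 TPM. Just outside it were Igfbp5, Arhgdib and Igf2bp1, with highest values of 1.07, 1.09 and 1.63 TPM.

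Position in the genome was not used for the choice. Chromosomes X, 3 and 7 carried 4 members each, against 3.20%, 4.45% and 6.48% of the 4693 named genes at 20 TPM or more at day 7. The 4 genes on X, Taf7l, Nxf7, Esx1 and Nrk, all lay within chrX:134460118-139010532, a stretch of 4.55 Mb, at gaps of 1.10, 1.52 and 1.79 Mb. The stretch holds 12 other named genes at 20 TPM or more at day 7. As they are not members, each had to reach 1 TPM in at least 1 day 21 library, and all 12 did so in every one. Of these, 6 were lower, 1 higher and 5 not called in 4F. Of all 4693 named genes at 20 TPM or more at day 7, 17.2% were lower and 2092 were higher. Hnrnph2, close to Taf7l, had 35.1 and 34.5 TPM at day 7 and 34.6 to 42.0 TPM at day 21. Fam199x, within 100 kb of Esx1, had 107 and 122 TPM and then 97.6 to 134 TPM, and neither passed the test in 4F on TPM as deposited. With quantile normalization and on recovered reads both were lower, at -0.39 and -0.49 for Hnrnph2 and -0.57 and -0.50 for Fam199x, with limma adjusted p of 0.015 to 0.046. Tceal8 rose from 32.8 and 37.4 TPM to 72.3 to 144 TPM (limma adjusted p = 0.0039 in 4F). Among genes with less RNA at day 7, Armcx2 went from 6.80 and 8.11 TPM to at most 0.0781 TPM and Gprasp2 from 4.13 and 10.8 TPM to at most 0.355 TPM. These are examples only, as the stretch holds 137 listed genes and counts for those with less RNA are not given here. Of all 772 tested genes on X, 16.2% were lower in 4F at day 21, near the 15.3% of all genes.

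On chromosome 3, Pbxip1, S100a1 and S100a10 lay within chr3:89436706-93564643, a stretch of 4.13 Mb with 12 other named genes at 20 TPM or more at day 7. By the selection each of the 12 had to reach 1 TPM in at least 1 day 21 library, and all did so in every one. Of these 12, 5 were lower, 4 higher and 3 not called in 4F. Among all 4693 named genes at 20 TPM or more at day 7, 17.2% were lower and 2092 were higher. S100a11, next to S100a10, was among the 5. Below the 20 TPM limit, S100a13 and S100a6, which lie near S100a1, had 9.62 and 6.43 TPM and 1.12 and 18.4 TPM at day 7 and were listed at 0 in all 5 day 21 libraries, as S100a1 was. They are examples from the 168 genes listed in the stretch, and counts for genes below the limit are not given here. The other gaps between members of a chromosome were over 6 Mb.

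**Figure D4:**
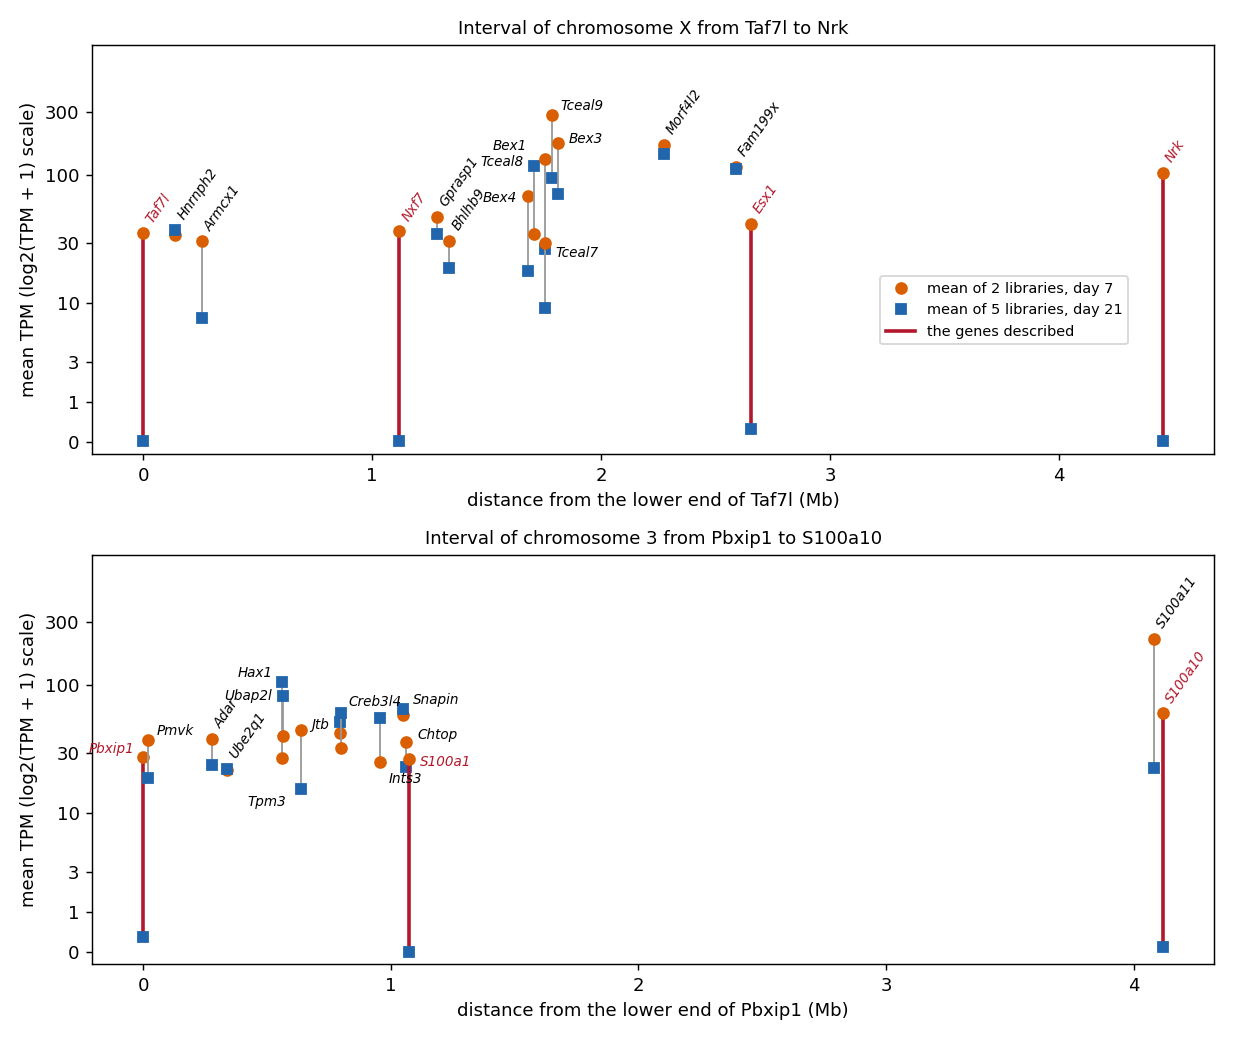
Mean TPM, on the log2(TPM + 1) scale, at day 7 (orange circles, 2 libraries) and day 21 (blue squares, 5 libraries) of named genes at 20 TPM or more at day 7, by distance along the stretches of chromosomes X and 3. The members (red lines) drop to the bottom of the scale between neighbours plotted here that stay above 1 TPM. A plotted gene that did not reach 1 TPM in any day 21 library would be a member, so the selection in part sets this contrast.

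**Figure D5:**
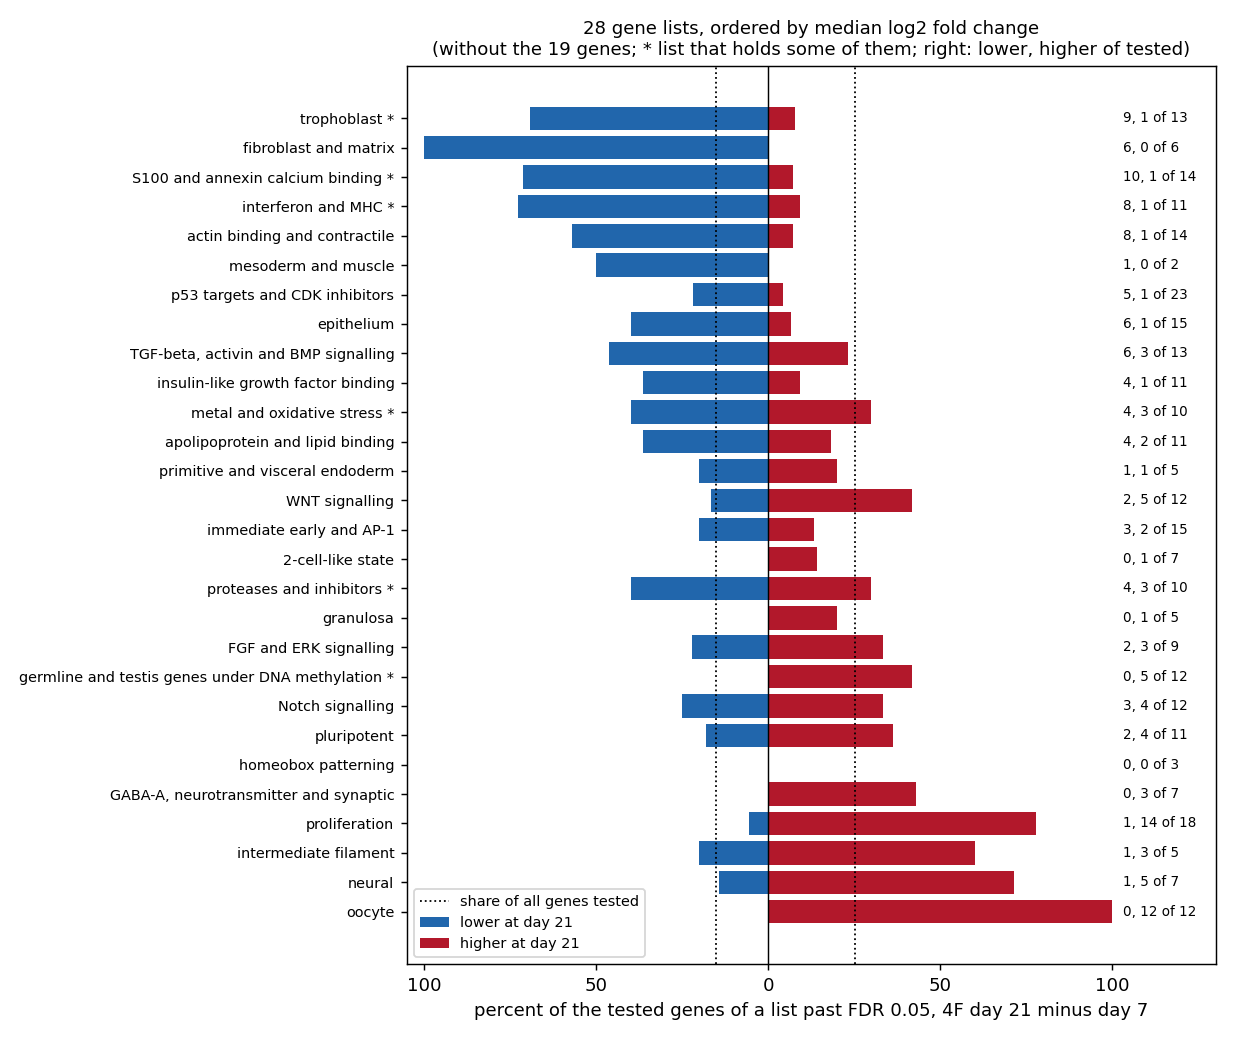
Percent of the tested genes of each of 28 lists, without the 19 members, that were lower (blue) or higher (red) in 4F at day 21 than at day 7 at FDR 0.05, with dotted lines at the shares of all tested genes (15.3% and 25.3%). Of the 6 lists marked as holding members, those for trophoblast, interferon and MHC, and S100 and annexin genes have 9, 8 and 10 lower genes among the others, with 1 higher in each. The metal and protease lists each have 4 lower and 3 higher of 10, and the germ line list has 0 lower and 5 higher. All 12 oocyte markers were higher, with the induced factors Nobox and Figla among them.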

How the data were processed

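RNA of 7 mini-oocyte libraries made with the SMART-seq Stranded kit was analysed. Per the methods, adapter bases were clipped (Trim Galore), HISAT2 placed reads on mm10, bedtools took out rRNA, and only unique hits were kept. featureCounts then summed them over GENCODE vM25 exons, dividing a read among overlapping genes, with no strand option stated. The authors deposited the result as TPM. Unique mapping lowers genes with near-identical copies. Libraries were run on either of 2 NovaSeq models with different read lengths, and which library ran on which is not given in the sources used here.

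Here limma 3.58.1 (R 4.3.3, eBayes with trend) was fitted to log2(TPM + 1) of the 21780 genes that reached 1 TPM in 2 or more libraries, in 1 fit of 3 groups, two-sided, with Benjamini-Hochberg adjustment over all tested genes at FDR 0.05. The fit was tested on simulated data. Members and lists were chosen with earlier results of these data known. Values in every library are given for the 15 members with the highest day 7 mean, those on a list, those nearest the limits and those with a close relative or neighbour among the members. From each list holding a member, the 2 other genes with the highest mean TPM are named. Related genes were chosen after the members' values were seen. Reads were recovered from the steps of low TPM values with GENCODE vM21 exon lengths. In each library at least 98.0% of low values came out whole within 0.02. Coordinates are those of mm10.

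Alternatives were pseudocounts of 0.1 and 5, no filter or 5 TPM, median-of-ratios and quantile scaling, eBayes without trend, the groups compared alone, a replicate block, each library left out, voom on recovered reads and, added after seeing the data, genes of at least 300 exonic bases only.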

Additional observations from a re-analysis of the deposited data

How the results depend on the processing

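The members' lower calls in the comparisons with day 7 were fixed by the selection, so that their persistence under the alternatives says nothing of stability. The number of members was 47 with at least 10 TPM at day 7, 2 with at least 50 TPM, 13 under 0.5 TPM and 26 under 2 TPM at day 21, and 27 after median-of-ratios rescaling. It lay between 20 and 37 without single libraries, with 37 without 4F day 7 replicate 1. The day 7 replicate ratio lay between -0.16 and -0.07.

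Over all genes, the calls for 4F at day 21 minus day 7 (8847) ranged from 7040 to 8320 with a library left out, and those for 8F at day 21 minus 4F at day 7 (8103) from 4089 without 8F replicate 2 and 4215 without 8F replicate 1 to 8281. The calls for 8F minus 4F at day 21 (1822) were 1051 without a filter and 994 without the trend. They ran from 306 to 2221 with a library left out, with 943, 924 and 1021 without 4F replicates 1, 2 and 3 and 306 and 357 without 8F replicates 1 and 2. With a replicate block these calls were 164, against 7241 and 7037 in the comparisons with day 7. The replicate numbers did not pair the libraries (same-numbered deviations correlated at -0.0369 to 0.0111), and the block changed no call of a member.

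Of 646 values of the other genes named with a test, 609 kept direction and side of the threshold. Of the rest, 20 were no longer past it, 7 of them for Anxa2 in 8F minus 4F and 9 for Mcl1. Nxf1 came past it in 3 settings and Irf3 in 1, and 13 turned. With median-of-ratios, quantile and voom, Fam199x turned to -0.28, -0.57 and -0.50 and Hnrnph2 to -0.28, -0.39 and -0.49, both past the threshold with quantile and voom, and Taf7 turned to -0.0272 with quantile normalization. With the replicate block Irf3 turned to 0.0180 and Mov10l1 to 0.0856. With single libraries left out, Irf3 ranged from -0.377 to 0.0180, Mov10l1 from -0.407 to 0.0856 and Fam199x from -0.0374 to 0.169. The cause was not tested. Depth limits the day 21 values: 47 of the members' 95 values were 0 and 25 rested on more than 10 reads.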

Other observations

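Gene groups that hold no member give the wider setting of the 19 genes. All 6 tested fibroblast and matrix genes were lower in 4F at day 21 than at day 7 (limma, FDR 0.05), led by the basement membrane collagens Col4a1, which had 301 and 171 TPM at day 7 and 4.05 to 13.5 TPM at day 21, and Col4a2, which had 138 and 67.0 TPM and then 0.337 to 2.92 TPM. Of 14 tested genes for actin binding and contraction, 8 were lower and 1 higher, and of 15 epithelial genes 6 were lower and 1 higher. Of 15 tested immediate early and AP-1 genes, 3 were lower and 2 higher, with a median log2 fold change of -0.07. The shares over all tested genes were 15.3% lower and 25.3% higher. In the other direction, 14 of 18 proliferation genes were higher and 1 lower, and all 12 oocyte markers were higher in 4F. Nobox and Figla, whose RNA includes that of the transgenes, are among the 12.

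The 17 genes left out by symbol include the keratins Krt7 and Krt19, the homeobox genes Rhox6 and Rhox9 and the imprinted gene Phlda2, which met the same TPM limits as the 19.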
